A study of Rattus norvegicus with 8 samples.

Results

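The genes described are the subunits and regulators of the proteasome in the rat periodontal ligament (PDL), the connective tissue that holds the tooth root in its socket. They were chosen by symbol (Psma, Psmb, Psmc, Psmd, Psme, Psmf or Psmg followed by a number) and by a minimum of 10 counts in at least 4 of the 8 libraries. Of 17337 genes in the count table, 49 symbols matched and 46 met the minimum, and all 46 entered the test. The 3 others were Psma3l (0.342 CPM at most), Psma8, a core subunit known from the testis (1 library with any count, at 0.0815 CPM), and Psmb11, the thymus-restricted core subunit (no count in any library). Psmc3ip met the rule by its symbol, but is named for binding Psmc3 and is known from meiotic recombination, not as a proteasome subunit.

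The study sampled PDL from the cervical region of the tooth by laser micro-dissection, in untreated Rattus norvegicus at postnatal day 18 (P18) and day 28 (P28). There were 4 animals and 4 libraries per age, prepared with a kit for low RNA input, and the labels give no strain, sex or genotype. The interval spans the time when the molars of the rat come into contact, and the comparison of the ages asks what differs between ligament before and after it. Libraries held 5252693 to 26645656 counts. The shallowest, P28 replicate 4, also had the lowest median correlation with the other libraries of its age across genes, 0.761. P18 replicate 1 was next at 0.784, and the rest were at 0.813 to 0.833. Some results that rest on P28 replicate 4 are given with and without it, and others with it only. The ligament gene Postn was at 13232 CPM (counts scaled to a common library size) or more in every library. Tnmd, a ligament and tendon gene, fell from 479 to 734 CPM at P18 to 51.1 to 133 CPM at P28 (0.185-fold, adjusted p = 0.00608 by edgeR). Aspn, also used as a ligament marker, was at 0.0904 CPM at most. The sum of the 6 ligament fibroblast markers, most of it Col1a1 and Col3a1, ran from 82488 to 126836 CPM at P18 and from 128343 to 176774 CPM at P28, and osteoclast markers from 1449 to 1701 CPM and from 1020 to 7744 CPM. The osteoblast and cementoblast markers summed to 1697 to 3139 CPM at P18 and 3516 to 7839 CPM at P28, with no overlap, and among them Bglap rose (4.62-fold, adjusted p = 0.0264 by edgeR). Epithelial and enamel organ markers summed to 30.2 to 3387 CPM at P18 and 37.9 to 3555 CPM at P28, highest in P18 replicate 1 and P28 replicate 2. Among them Ambn and Amtn were lower at P28 (adjusted p = 0.0204 and 0.0188 by edgeR). Amelx was lower, and Krt5 and Krt14 higher, without passing the test. The part of such shifts between cell types in the comparisons of the proteasome genes was not tested. The tissue is a mixture of cells, so a lower level can come from fewer cells of a type or from less RNA per cell, which cannot be told apart here.

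The proteasome degrades proteins that carry ubiquitin chains. Its core is a barrel of stacked rings: outer rings of alpha subunits (Psma genes) gate the entrance, and inner rings of beta subunits (Psmb genes) hold the proteolytic sites. The regulatory particle binds the ends of the barrel. Its ATPases (Psmc genes) unfold the substrate, and its other subunits (Psmd genes) bind ubiquitin chains and remove them. In immune cells and under interferon, the catalytic subunits Psmb6, Psmb7 and Psmb5 are replaced by Psmb9, Psmb10 and Psmb8 to make the immunoproteasome, which is known for producing peptides for antigen presentation. Ligament fibroblasts turn over collagen quickly, but collagen is cleared mainly outside the cell and in lysosomes; the proteasome handles proteins of the cytosol and nucleus.

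The 3 pairs of catalytic genes differ in how they are switched on, so their promoters are shown side by side, 250 bases before to 50 bases after the RefSeq start (GRCr8), 5′ to 3′ on the strand of the gene. Capitals mark matches to the core of the interferon-stimulated element, GAAANNGAA, or of the antioxidant response element, TGACNNNGC, searched on both strands; matches of the same motif that overlap run together. The antioxidant response element is the site of Nfe2l1 and Nfe2l2, known activators of proteasome genes. In the inducible and constitutive pair Psmb8 (chr20:4656982-4657281, minus strand) and Psmb5 (chr15:32047330-32047629, minus strand), the first has 1 interferon match, on the opposite strand, and the second 1 antioxidant match.
Psmb8: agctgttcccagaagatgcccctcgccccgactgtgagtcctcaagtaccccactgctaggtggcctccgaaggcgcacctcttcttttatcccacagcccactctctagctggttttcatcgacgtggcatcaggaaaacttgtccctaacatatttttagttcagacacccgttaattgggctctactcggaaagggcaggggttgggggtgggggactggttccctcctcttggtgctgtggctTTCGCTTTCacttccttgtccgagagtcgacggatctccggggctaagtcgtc
Psmb5: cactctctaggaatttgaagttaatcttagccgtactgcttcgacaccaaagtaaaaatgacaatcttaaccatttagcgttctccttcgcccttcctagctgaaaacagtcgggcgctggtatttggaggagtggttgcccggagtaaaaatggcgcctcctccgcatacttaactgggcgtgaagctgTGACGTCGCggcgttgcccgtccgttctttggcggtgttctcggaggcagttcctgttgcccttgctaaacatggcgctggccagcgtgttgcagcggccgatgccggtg
In the pair Psmb9 (chr20:4668750-4669049, plus strand) and Psmb6 (chr10:55737638-55737937, plus strand), the first has no match of either motif in this window and the second has 1 antioxidant match.
Psmb9: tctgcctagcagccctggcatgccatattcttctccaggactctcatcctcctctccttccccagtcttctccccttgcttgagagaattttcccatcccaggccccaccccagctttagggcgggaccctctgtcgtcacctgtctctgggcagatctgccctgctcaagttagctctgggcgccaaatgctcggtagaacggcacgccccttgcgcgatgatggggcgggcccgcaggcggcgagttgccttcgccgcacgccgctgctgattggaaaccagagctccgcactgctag
Psmb6: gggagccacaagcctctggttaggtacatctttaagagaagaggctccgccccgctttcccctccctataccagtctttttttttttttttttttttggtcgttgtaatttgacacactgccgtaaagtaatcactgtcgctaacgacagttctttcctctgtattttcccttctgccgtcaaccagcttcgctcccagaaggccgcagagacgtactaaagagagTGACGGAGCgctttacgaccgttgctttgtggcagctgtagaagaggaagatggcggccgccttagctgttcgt
In the pair Psmb10 (chr19:50743243-50743542, minus strand) and Psmb7 (chr3:42827421-42827720, minus strand), the first has 3 interferon matches and the second no match of either motif.
Psmb10: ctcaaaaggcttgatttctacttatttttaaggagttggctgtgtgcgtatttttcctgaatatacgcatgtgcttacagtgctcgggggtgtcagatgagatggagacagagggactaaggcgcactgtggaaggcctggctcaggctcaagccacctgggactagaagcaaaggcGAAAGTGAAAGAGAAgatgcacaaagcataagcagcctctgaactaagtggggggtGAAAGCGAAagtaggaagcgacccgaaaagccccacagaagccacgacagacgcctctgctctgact
Psmb7: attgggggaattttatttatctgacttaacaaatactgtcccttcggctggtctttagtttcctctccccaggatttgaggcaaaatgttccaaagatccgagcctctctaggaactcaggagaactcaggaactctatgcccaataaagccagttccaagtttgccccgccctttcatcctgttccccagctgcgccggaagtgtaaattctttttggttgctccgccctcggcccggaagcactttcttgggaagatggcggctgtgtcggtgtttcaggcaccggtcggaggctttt

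Promoters of 42 of the 46 members were matched. The interferon core was in 9 of the 42 (21.4%), against 9.71% of all 33469 promoters, and besides Psmb8 and Psmb10 it was in those of Psma4, Psmb2, Psmb3, Psmd7, Psmd11, Psme2 and Psmg4. The antioxidant core was in 8 of the 42 (19.0%), against 12.1% of all promoters: Psma3, Psmb2, Psmb5, Psmb6, Psmd1, Psmd3, Psmd9 and Psme4. Each member was counted once, while the 33469 promoters were taken as listed, without a limit to the genes tested here. The shares of members and of all promoters are thus over unlike sets. A match describes the letters only. On the same assembly, Psmb8 and Psmb9 lie among the peptide transporter genes of chromosome 20, in the order Tap2, Psmb8, Tap1, Psmb9, with 0 protein-coding starts between neighbours.

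Between P18 and P28, no proteasome gene passed the test. With edgeR's quasi-likelihood test, 0 of the 46 members had an adjusted p under 0.05 in either direction, where 98 of all 10472 genes tested did (0.936%; 0.516% higher and 0.420% lower). At the background share fewer than 1 member would be called, so the 0 is no result about the members. The Wald test of DESeq2 also called 0 of 46 members (5.30% of all genes), as did limma with voom and quality weights (2.93% of all genes). At an unadjusted p under 0.05, edgeR had 4 of 46 members (8.70%), against 14.5% of all genes; DESeq2 had 4 (8.70%, against 16.7% of all genes) and voom 9 (19.6%, against 21.5%). The 4 were Psme3, Psmb10, Psmg4 and Psmc2, of which Psme3 and Psmc2 were lower and Psmb10 and Psmg4 higher at P28. In 2 members (4.35%), Psme3 and Psmg1, P18 and P28 values did not overlap, against 10.4% of all genes.

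The members were measured with narrower error than most genes. The median within-age coefficient of variation was 21.2% for members and 42.8% for all genes tested, and the SE of the log2 fold change had a median of 0.24 and 0.49. Members were also more abundant, with a median of 151 CPM against 31.4 CPM. The 95% interval of the log2 fold change lay within 1 of 0, that is within a 2-fold change either way, for 33 of 46 members (71.7%), against 21.8% of all genes. The other 13 reached past it: Psma3, Psmg2, Psmf1, Psmc3ip, Psme3, Psmb9, Psmd1 and Psmd3 on the low side, Psmg4, Psmb10 and Psme2 on the high side, and Psmb8 and Psmd10 on both. The median log2 fold change (P28 over P18) of the members was -0.06, against 0.0067 for all genes, and 20 of 46 (43.5%) were above 0, against 50.3% of all genes.

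**Figure D1:**
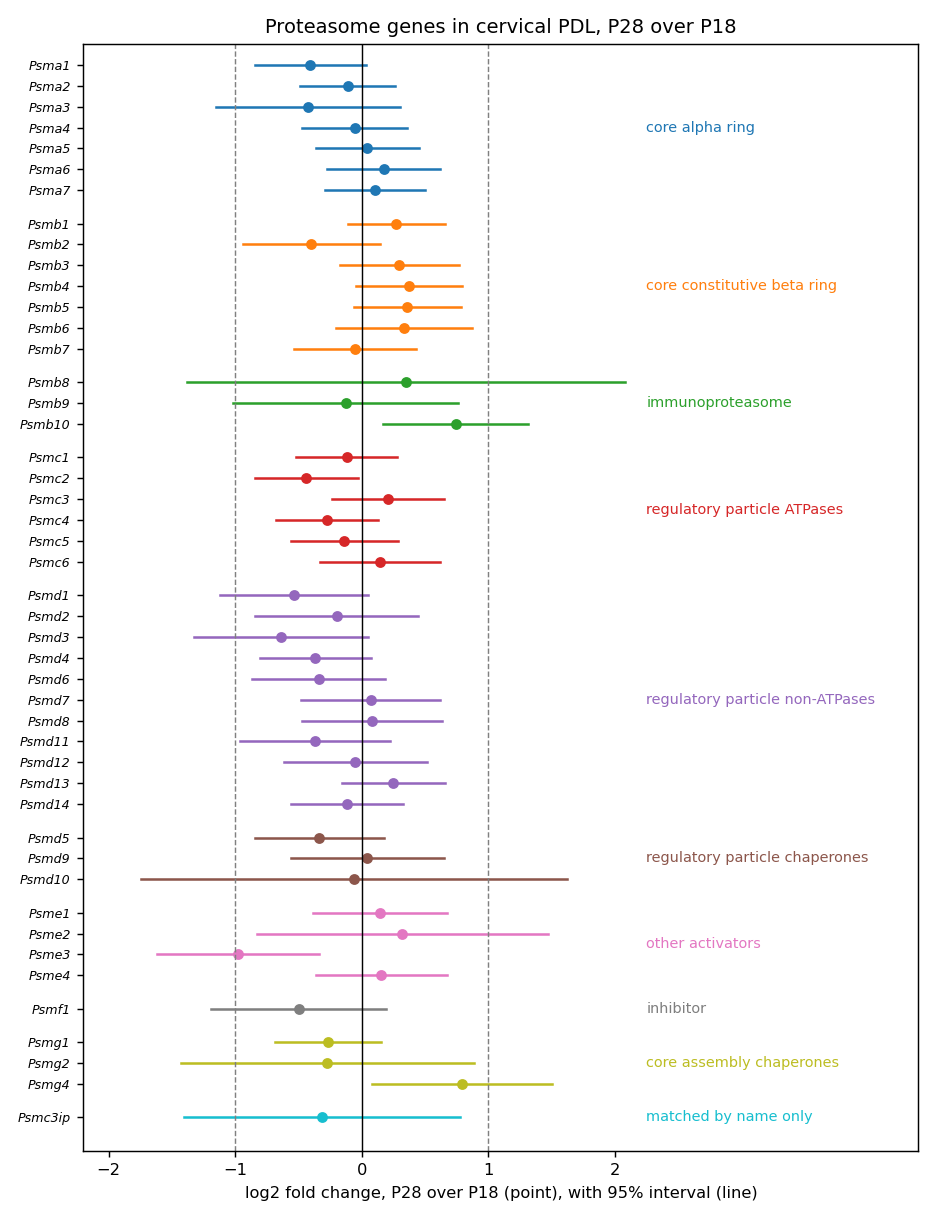
Log2 fold change (P28 over P18, horizontal axis) of each of the 46 members by edgeR, with lines for the 95% interval of that gene alone, unadjusted, grouped by role on the vertical axis. Psme3 lies lowest at -0.98 and Psmg4 highest at 0.79, and the intervals of Psmb8 and Psmd10 are the widest.

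**Figure D2:**
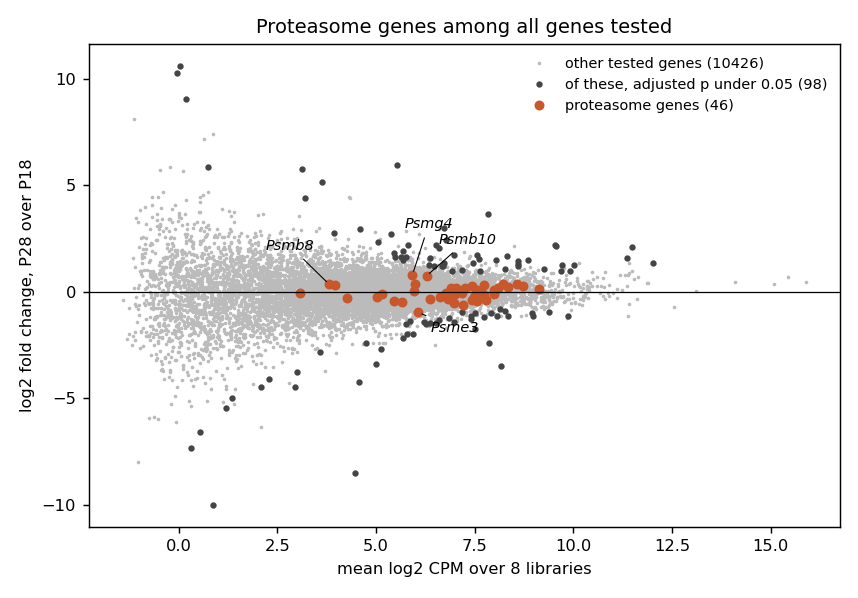
Log2 fold change (P28 over P18, vertical axis) against mean log2 CPM (horizontal axis) for all 10472 genes tested, with the 46 members in orange, the 98 called genes in black and the rest in grey. The members lie within 1 of 0, most of them at abundances where the scatter of other genes is narrower.

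The alpha ring, which gates the core, had near equal levels at both ages. Its 7 genes summed to 1712 CPM ± 116 at P18 and 1703 CPM ± 169 at P28 (SD, n = 4), and their median log2 fold change was -0.06 (0.018 without P28 replicate 4), with 3 genes above 0 and 4 below. Psma1 had the lowest p of the ring. It was at 193, 183, 208 and 212 CPM in P18 replicates 1 to 4 and at 128, 117, 185 and 171 CPM at P28. The highest P28 library just passed the lowest P18 library, and the log2 fold change was -0.40 ± 0.20 (SE; adjusted p = 0.388 by edgeR). Psma3 was at 41.3, 47.9, 48.6 and 68.7 CPM at P18 and 24.8, 41.4, 34.1 and 53.9 CPM at P28, with a log2 fold change of -0.43 ± 0.33 (adjusted p = 0.615 by edgeR). Psma3 is uncertain, since the count table also lists the near copy Psma3l, between which reads can be split. How reads that match several places, such as processed pseudogenes of proteasome genes, were counted is not stated, so the levels of other members can be affected too. The other 5 alpha genes had log2 fold changes from -0.11 (Psma2) to 0.17 (Psma6), and Psma7 was at 545 CPM ± 27.2 and 586 CPM ± 115.

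The constitutive beta ring, which carries the proteolytic sites, was somewhat higher at P28 in most members, though none passed the test. Its 7 genes summed to 1646 CPM ± 109 at P18 and 1891 CPM ± 180 at P28 (ratio 1.15). The ages overlapped: P28 replicate 2 (1690 CPM) lay below P18 replicates 3 (1738 CPM) and 4 (1726 CPM). Of the 7, 5 were above 0, against 50.3% of all genes, with a median log2 fold change of 0.30. Psmb5, the chymotrypsin-like site, was at 291, 308, 350 and 399 CPM at P18 and 395, 356, 555 and 425 CPM at P28. Only the highest P18 library overlapped the P28 range, and the log2 fold change was 0.36 ± 0.20 (adjusted p = 0.432 by edgeR), or 0.22 without P28 replicate 3. Psmb6, the caspase-like site, was at 64.3, 57.5, 52.3 and 52.7 CPM at P18 and 73.5, 56.3, 88.1 and 67.8 CPM at P28 (log2 fold change 0.33 ± 0.25, adjusted p = 0.587 by edgeR). P28 replicate 2 lay within the P18 range and the other 3 P28 libraries above it. Psmb7, the trypsin-like site, was at 153, 143, 161 and 143 CPM at P18 and 160, 178, 148 and 92.0 CPM at P28, so that P28 replicate 4 was low and the rest like P18. Its log2 fold change was -0.05 ± 0.22 (adjusted p = 0.944 by edgeR), and 0.11 without P28 replicate 4. Psmb4, a structural subunit of the ring, was at 330, 232, 239 and 247 CPM at P18 and 311, 329, 414 and 304 CPM at P28, with P18 replicate 1 alone at the P28 level (log2 fold change 0.37 ± 0.19, adjusted p = 0.406 by edgeR). Of the remaining structural genes, Psmb1 was at 0.27 ± 0.18 and Psmb3 at 0.30 ± 0.22 on the log2 fold change scale, and Psmb2 at -0.40 ± 0.25.

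Over both rings, the 14 core genes had a median log2 fold change of 0.07 (8 above 0, 6 below), which became -0.04 without P28 replicate 3. They summed to 3357 CPM ± 225 at P18 and 3594 CPM ± 349 at P28, and the ages overlapped. P28 replicate 3 had the highest core sum, 4053 CPM, and also the highest sum of osteoclast markers, 7744 CPM. P28 replicate 2 had the lowest core sum of P28, 3211 CPM, and the lowest osteoclast sum of all libraries, 1020 CPM. The lowest core sum of all libraries, 3055 CPM, was in P18 replicate 1, where the osteoclast sum was 1484 CPM. Over P18 the core sum ran from 3055 to 3532 CPM and the osteoclast sum from 1449 to 1701 CPM. The part of these cells in the core sums was not tested.

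Of the 17 subunits of the regulatory particle, 5 were above 0 and 12 below, with a median log2 fold change of -0.14. The median was -0.24 without P28 replicate 4 and -0.09 without P18 replicate 2. The subunits summed to 3164 CPM ± 238 at P18 and 2882 CPM ± 287 at P28 (ratio 0.911), and the ages overlapped. Among the 6 ATPases (median -0.13), Psmc2 was at 183, 225, 217 and 248 CPM at P18 and 149, 154, 146 and 197 CPM at P28. All P28 libraries but replicate 4 lay below the P18 range, and the log2 fold change was -0.44 ± 0.19 (adjusted p = 0.308 by edgeR). Without P28 replicate 4 it was -0.54. Psmc4 was at 197, 183, 182 and 233 CPM at P18 and 136, 163, 188 and 170 CPM at P28, where replicate 3 lay within the P18 range (log2 fold change -0.28 ± 0.19, adjusted p = 0.543 by edgeR). The other 4 ATPases were between -0.14 (Psmc5) and 0.21 (Psmc3).

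Of the 11 non-ATPase subunits 8 were below 0, with a median log2 fold change of -0.20. Psmd3, a subunit of the lid, was at 202, 203, 188 and 175 CPM at P18 and 150, 200, 73.0 and 69.9 CPM at P28. P28 thus held a pair of low libraries, one below P18 by less, and one within the P18 range. The log2 fold change was -0.64 ± 0.32 (adjusted p = 0.384 by edgeR), and -0.45 without P28 replicate 4. Psmd1, a large scaffold of the base, was at 125, 142, 166 and 189 CPM at P18 and 87.0, 125, 66.7 and 151 CPM at P28 (log2 fold change -0.54 ± 0.27, adjusted p = 0.392 by edgeR). Its low P28 libraries were replicates 1 and 3. Psmd4, a receptor for ubiquitin chains, was at 210 CPM ± 26.7 and 163 CPM ± 33.1 (log2 fold change -0.37), and Psmd14, the deubiquitinase of the lid, at 133 CPM ± 24.3 and 123 CPM ± 10.7 (-0.11).

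Animals within P28 differed more than the ages for several of these genes, and not all in 1 direction. Psmd2, the other large scaffold of the base, was at 138, 179, 134 and 357 CPM at P28, against 203 to 267 CPM at P18. Psmd7 of the lid was at 248, 219, 184 and 428 CPM at P28, against 228 to 290 CPM at P18. P28 replicate 4 was thus the highest of all libraries for Psmd2 and Psmd7 and the lowest for Psmd3 and for Psmd12, another lid subunit (64.5 CPM, against 91.8 to 144 CPM in the others). The ratio of summed regulatory particle to summed core CPM was 0.921, 0.987, 0.917 and 0.945 at P18 and 0.764, 0.886, 0.650 and 0.940 at P28. All P28 libraries but replicate 4 lay below the P18 range; the ratio was formed after the values were seen and has no test.

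Of the 3 immunoproteasome genes, Psmb10 and Psmb8 had log2 fold changes above 0 and Psmb9 below 0. Differences between these estimates were not tested. Over the 8 libraries, Pearson's r of log2 CPM was positive for each pair: 0.70 for Psmb8 with Psmb9, 0.54 for Psmb8 with Psmb10, and 0.48 for Psmb9 with Psmb10. Without P28 replicate 4 (n = 7) these were 0.60, 0.70 and 0.44. Psmb10, the counterpart of Psmb7, was at 51.0, 68.2, 63.1 and 62.9 CPM at P18 and 108, 101, 136 and 64.5 CPM at P28. The first 3 P28 libraries lay above all of P18 and replicate 4 within it, and the log2 fold change was 0.74 ± 0.26 (adjusted p = 0.208 by edgeR). Without P28 replicate 4 it was 0.91 (adjusted p = 0.0654) and without P28 replicate 3 it was 0.58 (adjusted p = 0.438), which are the extremes over all alternatives. Psmb9, the counterpart of Psmb6, was at 18.4, 56.9, 41 and 39.0 CPM at P18 and 41, 33.4, 46.2 and 21.8 CPM at P28. The ages overlapped throughout, and the log2 fold change was -0.12 ± 0.41 (adjusted p = 0.929 by edgeR), with a sign that turned without P18 replicate 2 (0.11) or P28 replicate 4 (0.05).

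Psmb8, the counterpart of Psmb5, varied most among the catalytic genes. It was at 5.88, 14.6, 16.3 and 31.6 CPM at P18 and 25, 31.3, 29.2 and 1.25 CPM at P28. P28 replicate 4 held 6 counts, which allows 0.458 to 2.72 CPM (exact Poisson 95% interval, counting error only). P18 replicate 1 held 65 counts, which allows 4.53 to 7.49 CPM. The other libraries were at 14.6 CPM or more. These intervals leave out error from the low RNA input, and the cause of the low values was not tested. The log2 fold change was 0.35 ± 0.80 (adjusted p = 0.890 by edgeR), and over single left-out libraries it ran from 0.07 to 0.83. Without P28 replicate 4 it was 0.74. Psmb9 was also lowest in these same libraries, P18 replicate 1 and P28 replicate 4, and so was the interferon regulatory factor Irf7 (1.36 CPM and 0.624 CPM, against 8.04 to 28.0 CPM in the others), a comparison made after the values were seen.

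**Figure D3:**
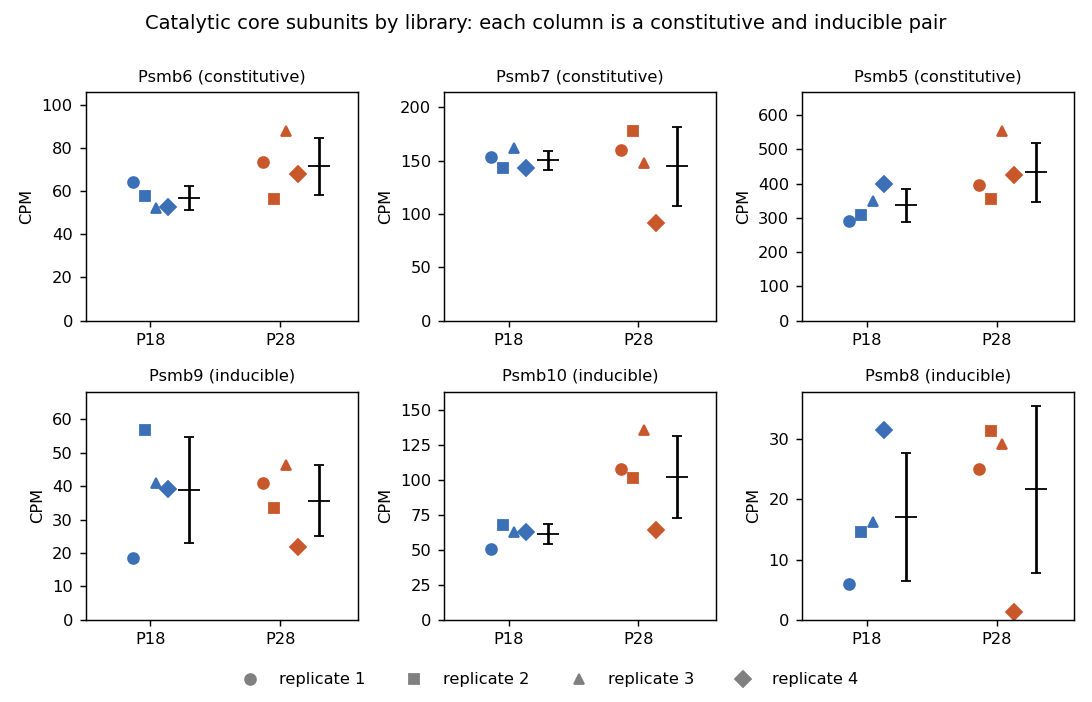
CPM (vertical axes, from 0) of the 6 catalytic genes in each library, by age on the horizontal axis, with marker shapes for replicates and the mean ± SD (n = 4) beside them; each inducible gene stands below its constitutive counterpart. Psmb10 is at 101 to 136 CPM in 3 of 4 P28 libraries and at 51.0 to 68.2 CPM in the P18 libraries, and Psmb8 is near 0 in P28 replicate 4.

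As a share of the summed CPM of the 6 catalytic genes, the 3 inducible genes made up 12.9%, 21.5%, 17.6% and 18.4% in P18 replicates 1 to 4 and 21.7%, 22.0%, 21.1% and 13% at P28. The ages overlapped, with a mean difference of 1.84 percentage points, which was 0.275 without P18 replicate 1 and 3.98 without P28 replicate 4. CPM is not per length, so such shares compare libraries and not the amounts of the subunits. By pair, Psmb10 made up 24.9% to 32.3% of Psmb10 plus Psmb7 at P18 and 36.3% to 48.0% at P28, with no overlap. In P28 replicate 4 this share (41.2%) went with a low Psmb7 (92.0 CPM), while Psmb10 itself was within the P18 range. Psmb9 made up 22.3% to 49.7% of Psmb9 plus Psmb6 at P18 and 24.4% to 37.3% at P28, and Psmb8 1.98% to 7.35% of Psmb8 plus Psmb5 at P18 and 0.293% to 8.09% at P28, both with overlap. These shares are a description of each library, with no test.

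**Figure D4:**
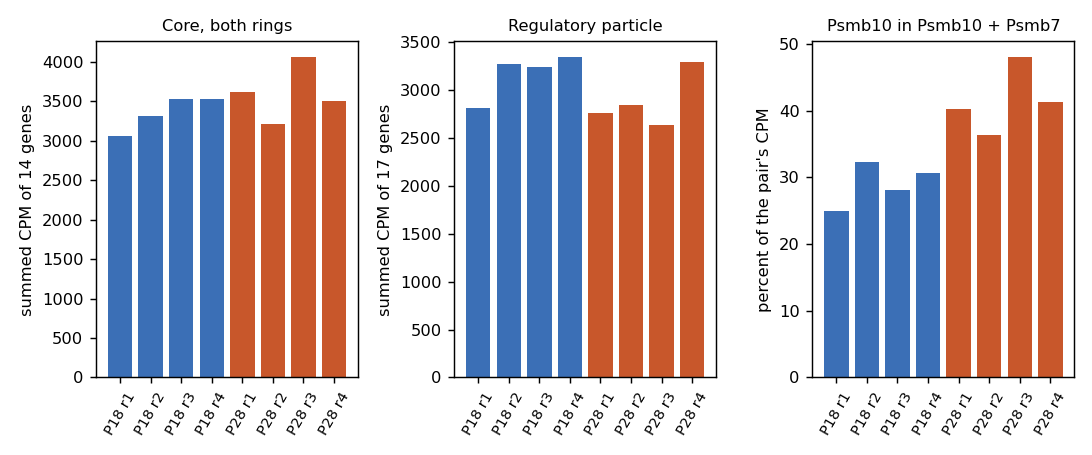
Bars from 0, one per library (P18 in blue, P28 in orange; r1 to r4 are replicates), of the summed CPM of the 14 core genes, the summed CPM of the 17 regulatory particle genes, and the percent of Psmb10 in the CPM of Psmb10 plus Psmb7. The core bars overlap between ages. The regulatory particle bars of P28 replicates 1 and 3 are below all P18 bars, and that of P28 replicate 2 is below all but P18 replicate 1. The Psmb10 share is 36.3% to 48.0% at P28 against 24.9% to 32.3% at P18.

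Leukocytes carry the immunoproteasome constitutively, so their markers are set beside these values. The 4 leukocyte markers, all detected, summed to 735 to 973 CPM at P18 and to 717, 159, 688 and 1451 CPM at P28. The sum is mostly Cd74, which was at 549 to 748 CPM at P18 and 510, 91.8, 446 and 1267 CPM at P28, and the 4 genes did not share an order. In P28 replicate 4, where Psmb10 was at 64.5 CPM, Cd74 and Laptm5 (150 CPM) were the highest of all libraries, but Ptprc (13.3 CPM) was the lowest and Coro1a (20.6 CPM) the second lowest. In P28 replicate 2, where Psmb10 was at 101 CPM, Cd74, Laptm5 (37.2 CPM) and Coro1a (14.1 CPM) were the lowest and Ptprc (15.5 CPM) the second lowest. Macrophage markers (6 genes) summed to 228 to 430 CPM at P18 and 223 to 642 CPM at P28, and lymphocyte markers (5 genes) to 9.27 to 53.3 CPM and 0.235 to 4.79 CPM. The part of each cell type in the level of Psmb10 was not tested.

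Besides the regulatory particle, other caps can open the core. Psme3, which forms a nuclear cap known for degradation without ubiquitin, had the lowest p and the lowest log2 fold change of all members. It was at 73.2, 97.7, 106 and 112 CPM at P18 and 50.5, 69.6, 29.3 and 47.9 CPM at P28. All P28 libraries lay below all P18 libraries, and the log2 fold change was -0.98 ± 0.29 (0.507-fold, 95% interval 0.326 to 0.790; adjusted p = 0.140 by edgeR). The adjusted p was 0.0543 by DESeq2 and 0.0642 by voom, and over all alternatives it ran up to 0.298, so the difference passed the threshold in none of them.

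Psme1 and Psme2 form the interferon-inducible cap that works with the immunoproteasome. On GRCr8 they lie near each other on chromosome 15, with 1 protein-coding start between them. Psme1 was at 164, 130, 154 and 140 CPM at P18 and 180, 139, 227 and 104 CPM at P28 (log2 fold change 0.15 ± 0.24, adjusted p = 0.836 by edgeR), with the highest and the lowest library both in P28. Its sign turned without P28 replicate 3, to -0.06. Psme2 was at 11.1, 17.8, 13.4 and 14.3 CPM at P18 and 18.6, 17, 24.1 and 10.8 CPM at P28 (log2 fold change 0.32 ± 0.53, adjusted p = 0.835 by edgeR). P28 replicates 3 and 4 were its extremes too. Psme4, a large single-chain cap linked to histone degradation, was at 152, 146, 103 and 99.4 CPM at P18 and 162, 109, 115 and 171 CPM at P28 (log2 fold change 0.16 ± 0.24, adjusted p = 0.817 by edgeR), with broad overlap. Psmf1, known as an inhibitor of the core in vitro, was at 66.8, 54.3, 63.1 and 60.5 CPM at P18 and 23.7, 46.4, 42.9 and 60.8 CPM at P28. Only P28 replicate 4 lay within the P18 range, and the log2 fold change was -0.50 ± 0.32 (adjusted p = 0.516 by edgeR). Without P28 replicate 4 it was -0.70.

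Assembly of the core and of the base needs dedicated chaperones. Psmg1, which with Psmg2 helps the alpha ring to form, was at 99.4, 113, 110 and 108 CPM at P18 and 94.6, 88.2, 88.6 and 86.1 CPM at P28. The ages did not overlap and the spread within each was small, but so was the difference (log2 fold change -0.27 ± 0.19, adjusted p = 0.571 by edgeR). Psmg2 was at 26.5 to 59.9 CPM at P18 and 37.3, 40.2, 6.44 and 51.0 CPM at P28, where replicate 3 was low. Psmg4, also a chaperone of the alpha ring, was at 72.0, 35.0, 42.8 and 42.0 CPM at P18 and 107, 65.8, 105 and 53.3 CPM at P28. P18 replicate 1 lay within the P28 range, and the log2 fold change was 0.79 ± 0.33 (adjusted p = 0.285 by edgeR). Of the base chaperones, Psmd5 was at 109, 100, 83.2 and 80.8 CPM at P18 and 81.8, 81.4, 55.0 and 77.8 CPM at P28 (log2 fold change -0.33 ± 0.23, adjusted p = 0.560 by edgeR). Psmd9 was at 62.7 CPM ± 16.6 and 64.6 CPM ± 13.5 (log2 fold change 0.04 ± 0.28, adjusted p = 0.965 by edgeR), with a sign that turned when any of 3 libraries was left out, down to -0.11 without P28 replicate 3. Psmd10 was low, at 4.00 to 14.6 CPM over all libraries. Psmc3ip, included by name, was at 22.3 CPM ± 7.42 and 17.9 CPM ± 6.48 (log2 fold change -0.31 ± 0.50).

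Of 16 listed partners and controllers of the proteasome, 13 were tested and 0 passed by edgeR, where 0.936% of all genes did. At an unadjusted p under 0.05 there were 3, against 14.5% of all genes. The log2 fold change was above 0 in 5 and below in 8 (median -0.11), against 50.3% of all genes above 0. In 1 gene of the list the ages did not overlap, against 10.4% of all genes. Fbxo7, a ubiquitin ligase receptor that binds Psmf1, was at 68.3, 59.3, 35.1 and 43.6 CPM at P18 and 13.6, 40.0, 24.2 and 23.7 CPM at P28 (log2 fold change -1.02 ± 0.40, adjusted p = 0.256 by edgeR). Txnl1, a thioredoxin-like protein of the regulatory particle, was at 137, 136, 150 and 142 CPM at P18 and 122, 105, 83.8 and 97.2 CPM at P28, with no overlap (log2 fold change -0.47 ± 0.20, adjusted p = 0.290 by edgeR). Usp14, a deubiquitinase that docks on the regulatory particle, was at 98.7, 95.6, 91.7 and 75.6 CPM at P18 and 82.7, 50.3, 53.6 and 54.5 CPM at P28, where replicate 1 alone reached the P18 range (log2 fold change -0.58 ± 0.25, adjusted p = 0.304 by edgeR). Nfe2l2, the transcription factor of the antioxidant element, was at 125 CPM ± 32.3 and 150 CPM ± 48.7.

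Of 15 genes that supply or shuttle ubiquitin, 14 were tested and 0 passed by edgeR, where 0.936% of all genes did. At an unadjusted p under 0.05 there were 4, against 14.5% of all genes. The log2 fold change was above 0 in 4 and below in 10 (median -0.36), against 50.3% of all genes above 0. Without overlap between the ages, 2 genes of the list were higher at P28 and 2 lower, where 10.4% of all genes did not overlap. Ubb, a polyubiquitin gene, was at 1086 CPM ± 192 and 852 CPM ± 190 (log2 fold change -0.35). Vcp, an ATPase that pulls ubiquitinated proteins from complexes, was at 368, 440, 490 and 554 CPM at P18 and 305, 342, 342 and 291 CPM at P28, and Uba1, the main ubiquitin-activating enzyme, at 189, 201, 163 and 144 CPM and 134, 83.4, 112 and 133 CPM. For both genes the highest P28 value lay below the lowest P18 value, with log2 fold changes of -0.53 ± 0.18 (adjusted p = 0.188 by edgeR) and -0.59 ± 0.22 (adjusted p = 0.222 by edgeR).

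Of 16 genes of antigen presentation and its control, 12 were tested, and 1 rose, B2m, the light chain of class I molecules. Of all genes, 0.516% were called higher. B2m was also the 1 gene of the list without overlap between the ages, where 10.4% of all genes did not overlap. B2m was at 657, 613, 568 and 545 CPM at P18 and 1198, 1027, 1518 and 905 CPM at P28. The ages did not overlap, and the log2 fold change was 0.96 ± 0.19 (adjusted p = 0.0418 by edgeR), higher in 4 of 4 P28 libraries. Over the alternatives the adjusted p ran from 5.79e-05 (DESeq2) to 0.159 (without P18 replicate 2), and the call was lost without any of the P18 libraries or without P28 replicate 1 or 3. The list had 10 genes above 0 and 2 below, with a median of 0.49, against 50.3% of all genes above 0 and a median of 0.0067. The transporter gene Tap1, which lies between Psmb8 and Psmb9, was at 13.9, 32.3, 59.7 and 13.9 CPM at P18 and 52.3, 29.9, 16.1 and 30.6 CPM at P28 (log2 fold change 0.10 ± 0.55). Tap1 did not follow Psmb8 over the libraries: Pearson's r of log2 CPM was -0.01 (n = 8, sharing library and depth). It was 0.30 for Tap1 with Psmb9 and 0.70 for Psmb8 with Psmb9. Without P28 replicate 4 (n = 7) these were 0.12, 0.41 and 0.60.

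The genes whose log2 CPM over the 8 libraries was most like that of Psmb8 were Chp2 (Pearson's r = 0.979), Cnot6l (0.974), Nprl3 (0.973), Pdxk (0.972) and Il18bp (0.969). Without P28 replicate 4 (n = 7) these values were 0.948, 0.946, 0.895, 0.947 and 0.889. Among those most like the mean of the core were Cd82 (0.947), Dpp9 (0.939), Frs3 (0.934) and Rnh1 (0.928). All these values share libraries and depth and were picked as the highest of many genes.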

How the data were processed

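RNA was measured in 8 libraries of micro-dissected cervical PDL, 4 per age. The authors deposited raw counts per gene symbol; the build was rn6 and the tools HTSeq 0.9.1, STAR 2.5.3a and edgeR 3.16.5, per the submitters' processing notes. Annotation and strand setting: not given in the sources used here. A further 40 columns of other samples and a normalized table were not used.

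Counts were tested with edgeR 4.0.16 in R 4.3.3 (quasi-likelihood, TMM scaling, expression filter by age with a minimum count of 10, Benjamini-Hochberg over 10472 genes, called at 0.05). CPM used TMM-scaled library sizes, log2 CPM a prior count of 2. The SE is the log2 fold change over the root of F. Values are mean ± SD, n = 4. P-values measure the spread between animals as labelled. Alternatives were DESeq2 1.42.0, voom (limma 3.58.1), other scalings and filters, and leaving out each library.

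The members, lists and motifs were chosen with earlier results of these data known. Named genes were the catalytic, activator and inhibitor genes, the 2 members of each other role with the lowest p, and from each list the called gene or the 3 with the lowest p; others were named to fill out a role after their values were seen. Of the 49 symbols, 48 matched a RefSeq table (GRCr8), which gave neighbours and promoters; coordinates are on GRCr8, not on rn6. Some listed genes were not analysed here, and some genes that the rule names are not reported here. Intervals cover counting error only where they come from counts.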

Additional observations from a re-analysis of the deposited data

Results flagged for a closer look

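Among 70 sets of 4 libraries of an age, 5 had 1 library far from the other 3 by Dixon's criterion, where chance gives about 3.5 (1 in 20). At P18, Psmb4, a structural gene of the beta ring, was at 330 CPM in replicate 1, against 232 to 247 CPM in the others. At P28, Psmc2, an ATPase gene, was at 197 CPM in replicate 4, against 146 to 154 CPM. Psmd5, a chaperone of the base, was at 55.0 CPM in P28 replicate 3, against 77.8 to 81.8 CPM. The deubiquitinase gene Usp14 was at 82.7 CPM in P28 replicate 1, against 50.3 to 54.5 CPM. The inducible genes Psmb8, Psmb9 and Psmb10 made up 13% of the summed CPM of the 6 catalytic genes in P28 replicate 4, against 21.1% to 22.0% in the other P28 libraries; this library was also the shallowest.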

How the results depend on the processing

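Under all 15 alternatives (7 of scaling, filter, tool or replicate block, 8 leaving out a library), 0 of the 46 members were called; the lowest adjusted p of a member was 0.0543. Over all genes, the 54 higher and 44 lower calls became 290 and 262 with DESeq2 and 175 and 132 with voom. Leaving out single libraries gave 4 to 110 higher and 5 to 105 lower calls, the fewest without P18 replicate 2 and the most without P28 replicate 4. With the replicate number as a block, 16 genes were called higher and 10 lower. The labels number the subjects of each age 1 to 4, but no pairing of the libraries by number was visible. Same-number correlations of the deviations were -0.0028, -0.020, -0.013 and 0.0019, and none of the libraries correlated best with its own number. With 4 libraries per age, this check cannot exclude a weaker pairing. B2m was not called with the block (adjusted p = 0.0997). The median of the core ran from -0.037 (without P28 replicate 3) to 0.13 over left-out libraries; that of the immunoproteasome genes ran from 0.066 (without P18 replicate 1) to 0.76 (without P18 replicate 4), that of the regulatory particle from -0.24 to -0.09, and that of the alpha ring from -0.09 to 0.018, which turned sign without P28 replicate 4. Some genes near 0 changed sign: Psmb7 with voom (0.0366) and over left-out libraries (-0.17 to 0.11), Psmb9 (-0.36 to 0.11), Psme1 (-0.058 to 0.31) and Psmd9 (-0.11 to 0.23). The cause of these changes was not tested. Depth limits the low genes most: 3 counts correspond to 0.108 CPM in P18 replicate 2 and to 0.624 CPM in P28 replicate 4.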
